A study of Mus musculus with 5 samples.

Results

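The complement C1q genes *C1qa*, *C1qb* and *C1qc* were followed in bone marrow-derived dendritic cells (BMDCs) that overexpressed interferon regulatory factor 8 (IRF8). They were taken by gene name from the table of differentially expressed genes between *Irf8*-OE and control BMDCs, which held all 3 of them among its 1355 genes. Transcripts of every chain were several-fold more abundant in *Irf8*-OE. *C1qa* rose 13.2-fold, *C1qc* 5.54-fold and *C1qb* 4.58-fold, so that the A chain took 12.2% of C1q reads on average in control BMDCs and 27.2% in *Irf8*-OE.

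C1q is the recognition molecule of the classical complement pathway. It binds antibody complexes, apoptotic cells and other ligands through globular heads that stand on collagen-like stems, and it is built from equal numbers of A, B and C chains, each with its own gene. Together with the serine proteases C1r and C1s it forms the C1 complex, which cleaves C4 and C2. Whereas the liver is the main source of most complement proteins, C1q is made mostly by macrophages and dendritic cells, and its transcripts serve as macrophage markers in many tissues.

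RNA-seq covered 3 *Irf8*-OE samples and 2 control samples, with no other groups. *Irf8*-OE mice carried H11-CAG-LSL-*Irf8*-Flag-polyA (*Irf8* CAG-LSL) together with *Itgax* Cre, so the transgene was switched on in cells that had used the *Itgax* (CD11c) promoter. The control genotype is wild type in the sample labels and *Irf8* CAG-LSL without Cre in the paper. All mice were described as male, C57BL/6 and 8 weeks old, and all cultures were grown with 200 ng/ml Flt3L and 5 ng/ml GM-CSF, replated on day 9, collected on days 15 to 16 and labelled as stimulated with TNF-α, for which the protocol gives 20 ng/ml. The sources do not say whether samples of a group came from separate mice, so the spread between samples may be technical.

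The deposited values are normalized counts, read numbers that the authors scaled by 1 size factor per library, and they are given only for genes that had already passed the authors' thresholds for this contrast. The fold changes below therefore describe genes picked for their difference, and they are not an independent test of it. The listed genes held 646123 to 1062127 reads in each library, a part of its depth. The overexpressed gene *Irf8* had 2835 and 2747 normalized counts in the controls and 7141, 6519 and 6021 in *Irf8*-OE, in the direction of the labels.

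The *Irf8*-OE libraries went against the label of male mice, and the controls did not. *Xist*, the RNA of the inactive X chromosome, had a mean of 0.562 normalized counts in the controls and of 12437 in *Irf8*-OE. Genes of the Y chromosome (*Uty*, *Kdm5d*, *Eif2s3y* and *Ddx3y*) had control means of 511 to 1377, and *Irf8*-OE libraries had no read of any of them. Sex and genotype cannot be told apart in any result below, since both divide the 5 samples in the same way. As for the labelled cell type, 4 of 15 markers of conventional type 1 dendritic cells were listed. *Irf8*, *Itgae* and *Tlr11* were called higher, as were 58.1% of listed genes, and *Cd24a* lower. *Irf8* is the overexpressed gene, so its rise says nothing about cell type. Control and *Irf8*-OE means were 51.7 and 162 normalized counts for *Itgae*, 5.69 and 21.8 for *Tlr11*, and 10057 and 3855 for *Cd24a*. The mast cell gene *Cpa3* had 177303 normalized counts on average in the controls and 22297 in *Irf8*-OE. Markers that are not listed are not analysed here.

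The 3 genes lie side by side on the minus strand of mouse chromosome 4 (GRCm38) within 18675 bases. *C1qb* (ENSMUSG00000036905) runs from 136880129 to 136886187, *C1qc* (ENSMUSG00000036896) from 136889804 to 136893065 and *C1qa* (ENSMUSG00000036887) from 136895917 to 136898803, with gaps of 3616 and 2851 bases between them. No other gene of GENCODE vM21 overlaps any of them. The annotated transcripts of different chains share 0 stretches of 25 bases, so reads of 1 chain should not be counted for another.

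Promoters are shown for the chains that RefSeq (GRCm38.p6) covers, 2 of the 3 members, because neighbouring genes that move together are commonly compared by their start sites. Each window holds 250 bases before and 50 bases after the RefSeq start, on the minus strand, at chr4:136886151-136886450 for *C1qb* and chr4:136892865-136893164 for *C1qc*. Capitals mark every match to the ETS core GGAA or its reverse complement TTCC, the letters that PU.1, a partner of IRF8 on DNA, reads.
C1qb: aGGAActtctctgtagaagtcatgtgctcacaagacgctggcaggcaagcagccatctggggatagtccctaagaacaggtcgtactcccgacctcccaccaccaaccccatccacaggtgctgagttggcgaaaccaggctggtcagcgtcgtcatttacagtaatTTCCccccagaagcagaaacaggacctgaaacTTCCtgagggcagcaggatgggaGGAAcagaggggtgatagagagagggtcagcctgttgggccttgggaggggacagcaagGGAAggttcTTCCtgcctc
C1qc: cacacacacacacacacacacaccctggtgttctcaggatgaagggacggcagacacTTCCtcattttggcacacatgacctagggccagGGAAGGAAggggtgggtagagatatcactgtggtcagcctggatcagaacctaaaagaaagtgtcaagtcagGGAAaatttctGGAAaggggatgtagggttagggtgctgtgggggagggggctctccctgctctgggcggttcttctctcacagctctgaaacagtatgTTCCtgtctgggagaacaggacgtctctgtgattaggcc

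Each of the windows held 6 matches to the ETS core, a short word. At least 1 match is found in 96.0% of 32851 RefSeq promoter windows of the same length, and the number of matches per window was not compared. The interferon-stimulated response element, searched on both strands as GAAANNGAAA, had 0 matches in either window and is in 3.44% of all windows. The composite elements at which IRF8 sits beside an ETS factor, GGAANNGAAA and GAAANNGGAA, also had 0 matches and are in 2.72% and 2.80% of windows. These counts describe the letters of these windows only. The RefSeq start of *C1qc* lies 151 bases inside the gene as the table gives it, and that of *C1qb* 13 bases outside.

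*C1qa*, the A chain gene, had 439 and 395 normalized counts in the 2 controls and 6146, 5436 and 4951 in the 3 *Irf8*-OE samples. The groups were far apart, since the lowest *Irf8*-OE sample was 11.3 times the highest control. The means were 417 ± 31.2 (SD, n = 2) and 5511 ± 601 (SD, n = 3), a difference of 3.72 on the log2(normalized count + 1) scale (standard error 0.10, adjusted p = 4.1e-07 from limma with Benjamini-Hochberg adjustment over the 1355 genes).

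*C1qb*, the B chain gene, had 1929 and 1983 normalized counts in the controls and 9654, 8753 and 8447 in *Irf8*-OE. It had the most normalized counts of the 3 chains in every library and the smallest rise. The means were 1956 ± 38.2 (SD, n = 2) and 8951 ± 628 (SD, n = 3), a log2 difference of 2.19 (standard error 0.07, adjusted p = 5.5e-07 from limma).

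*C1qc*, the C chain gene, had 1016 and 1080 normalized counts in the controls and 6626, 5893 and 4910 in *Irf8*-OE. Its *Irf8*-OE samples were the most scattered of the 3 chains, with a coefficient of variation of 14.8% against 10.9% for *C1qa* and 7.01% for *C1qb*. The means were 1048 ± 45.0 (SD, n = 2) and 5810 ± 861 (SD, n = 3), a log2 difference of 2.46 (standard error 0.12, adjusted p = 2.6e-06 from limma).

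**Figure D1:**
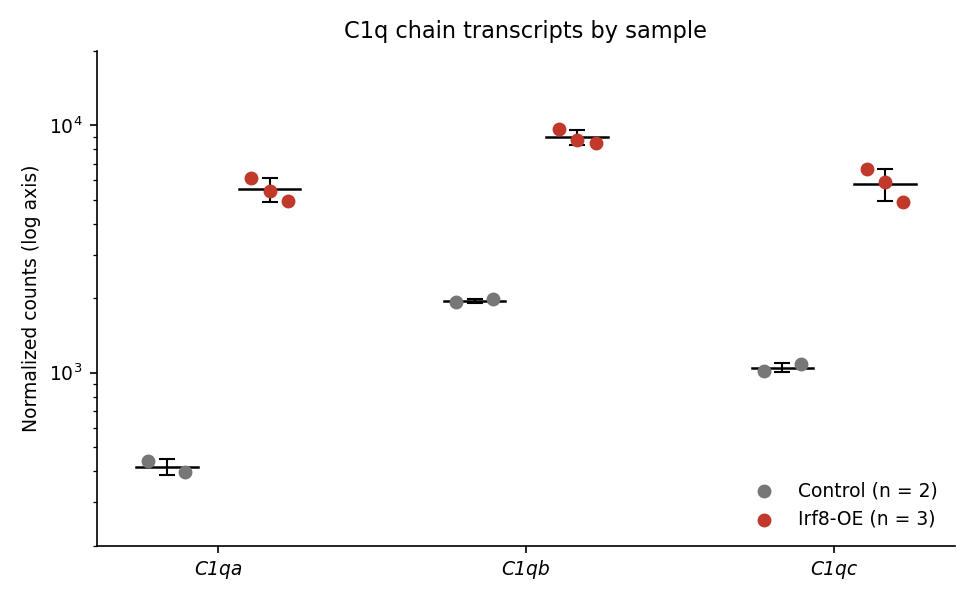
Normalized counts (log axis) of each C1q chain gene in every sample, with grey points for the 2 controls and red points for the 3 Irf8-OE samples; lines and bars give the mean and SD. Every Irf8-OE point lies above every control point, and the gap is widest for C1qa, at 417 against 5511 on average.

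All 3 chains were called (adjusted p under 0.05 from limma, log2 difference beyond 1 in size), but so were 99.1% of the listed genes, and 58.1% were called higher. The groups did not overlap for any chain, as for 100% of the listed genes, so that neither count says anything particular about C1q. Within the list, *C1qa* ranked 64th by log2 difference, *C1qc* 240th and *C1qb* 291st, while the median over the 797 genes above 0 was 1.81. In level they stood at 10th (*C1qb*), 20th (*C1qc*) and 21st (*C1qa*) of 1355 by normalized count, not scaled by length, in *Irf8*-OE, and at 89th, 141st and 264th in the controls. With 3 samples against 2, an exact permutation test over the 10 splits cannot go below p = 0.1.

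The 3 chains together had 3384 and 3457 normalized counts in the controls and 22426, 20082 and 18308 in *Irf8*-OE, a 5.93-fold difference of the means. Among the *Irf8*-OE samples, the library with the most *Irf8* also had the most of each C1q chain, and the library with the least *Irf8* had the least of each. Of the 2 controls, the one with more *Irf8* had more *C1qa* but less *C1qb* and *C1qc*. All values of a library share its size factor, and no relation was tested over 3 samples. In bulk RNA, more cells that make C1q and more C1q RNA per cell cannot be told apart.

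Ratios of chains within a library do not depend on its size factor. *C1qa* took 391 of 3011 C1q reads in the first control (95% Clopper-Pearson interval 11.8% to 14.2%) and 412 of 3603 in the second, 11.4% (10.4% to 12.5%). In *Irf8*-OE its share was 27.4% (26.8% to 28.0%), 27.1% (26.5% to 27.7%) and 27.0% (26.4% to 27.7%). The intervals, which cover counting error only, did not meet between groups, and the *Irf8*-OE samples were alike within them. The *Irf8*-OE shares rest on 4930 to 6412 *C1qa* reads.

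*C1qb* moved the other way as a share, with 57.0% and 57.3% in the controls against 43.0%, 43.6% and 46.1% in *Irf8*-OE. *C1qc* held 30.0% and 31.2% in the controls and 29.5%, 29.3% and 26.8% in *Irf8*-OE. Most of the gain of *C1qa* as a share was thus matched by the B chain. The third *Irf8*-OE sample differed from the other two by more than counting error, with a *C1qb* interval of 45.4% to 46.9% above theirs and a *C1qc* interval of 26.2% to 27.5% below. The chi-square of the 3 shares over the libraries of a group was 14.1 per degree of freedom in *Irf8*-OE and 2.03 in the controls.

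**Figure D2:**
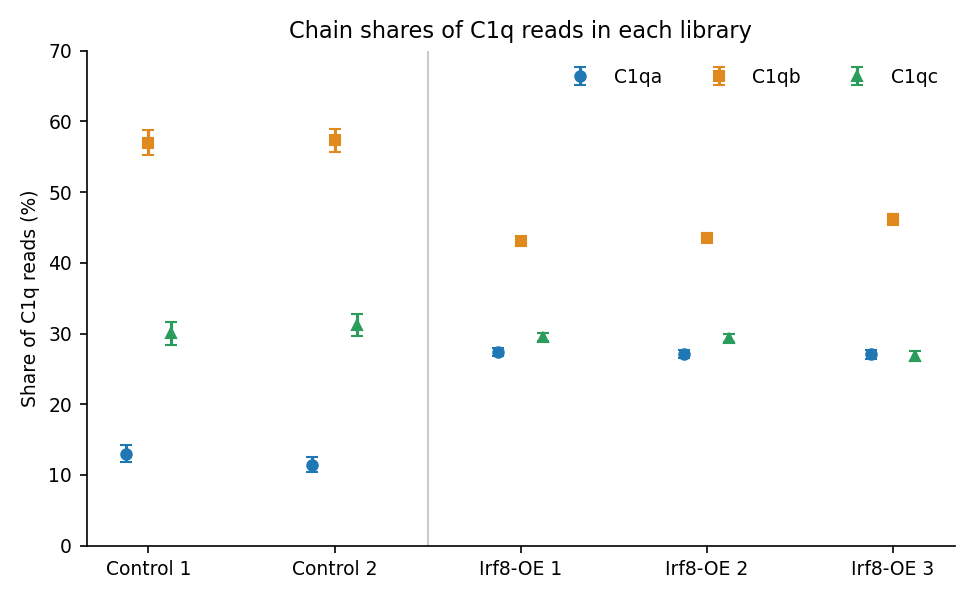
Share of C1q reads (%, linear axis from 0) held by each chain gene in each of the 5 libraries, with 95% Clopper-Pearson intervals as bars. C1qa lies at 27.0% to 27.4% in Irf8-OE and, in the controls, within intervals that end at 14.2% or lower, while C1qb lies lower in Irf8-OE and C1qc stays between 26.8% and 31.2%.

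The ratio of *C1qa* to *C1qb* normalized counts was 0.228 and 0.199 in the controls and 0.637, 0.621 and 0.586 in *Irf8*-OE. On the log2 scale it was 1.53 higher in *Irf8*-OE, 2.88-fold (two-sided exact permutation test, p = 0.1, the smallest this design allows, and 0.15 after Benjamini-Hochberg adjustment over the 3 ratios). It was higher in 3 of 3 *Irf8*-OE samples than in either control, and the difference was many times the spread within groups (SD of the log2 ratio 0.06, n = 3, and 0.14, n = 2). Taken singly, 100% of the listed genes did not overlap between the groups. Ratios of other pairs of listed genes were not computed, so a shift of chain ratios or shares is not shown to be particular to C1q.

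The ratio of *C1qa* to *C1qc* was 0.433 and 0.366 in the controls and 0.928, 0.922 and 1.01 in *Irf8*-OE, a log2 difference of 1.26 or 2.39-fold (exact permutation p = 0.1, adjusted 0.15). The ratio of *C1qb* to *C1qc* changed least. It was 1.90 and 1.84 in the controls and 1.46, 1.49 and 1.72 in *Irf8*-OE, a log2 difference of -0.27 (exact permutation p = 0.2, adjusted 0.2). The third *Irf8*-OE sample was nearer to the controls than to the other *Irf8*-OE samples in this ratio. Neither adjusted value passes 0.05, which a design of 3 against 2 could not reach.

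Levels of the 3 chains can be compared with each other only per length. With the gene lengths of the authors' table, 1040 bases for *C1qa*, 1088 for *C1qb* and 1931 for *C1qc*, the controls held 401 ± 30.0 (SD, n = 2), 1797 ± 35.1 and 543 ± 23.3 normalized counts per kilobase. The order B, C, A in the controls had no overlap between neighbours. In *Irf8*-OE the levels per kilobase were 5299 ± 578 (SD, n = 3) for *C1qa*, 8227 ± 577 for *C1qb* and 3009 ± 446 for *C1qc*, which places the A chain before the C chain.

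The place of *C1qc* depends on its length. The 1931 bases join a coding transcript of 1203 bases with a processed transcript of 946 bases, whereas the other chains have a single annotated transcript. With the coding transcript alone, a length chosen after the values were seen, *C1qc* had 871 ± 37.4 normalized counts per kilobase in the controls (SD, n = 2) and 4829 ± 716 in *Irf8*-OE (SD, n = 3). The controls then kept the order B, C, A. In *Irf8*-OE, *C1qa* at 4761 to 5910 and *C1qc* at 4082 to 5508 overlapped, and only *C1qb* stood apart from both.

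**Figure D3:**
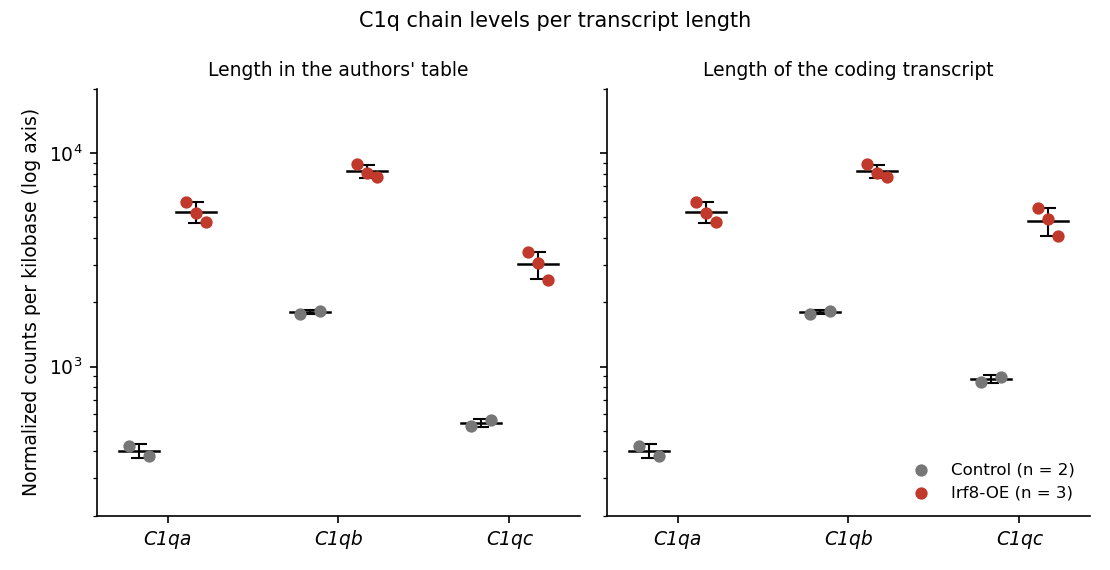
Normalized counts per kilobase (log axis) of each chain gene in every sample, with the gene lengths of the authors' table on the left and of the protein-coding transcript on the right; lines and bars give mean and SD. C1qb is highest in both groups on both scales, C1qa is lowest in the controls, and in Irf8-OE C1qa lies above C1qc on the left (5299 against 3009) and overlaps it on the right.

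Some of the other complement genes were listed, and the share of all measured genes that were listed is not known here. Of 59 genes for complement components, regulators and receptors, 11 were listed, and 10 were called higher and 1 lower. Being listed already meant passing the authors' thresholds, and 99.1% of all listed genes were called, with 58.1% of listed genes called higher. The listed components were *C1s1*, the protease partner of C1q, *Masp1* of the lectin pathway, *Cfb* of the alternative pathway, and *C4b*, a C4 gene. *C1s1* had 124 and 114 normalized counts in the controls and 319, 333 and 341 in *Irf8*-OE, a log2 difference of 1.47 (standard error 0.10, adjusted p = 1.1e-05 from limma), a smaller rise than that of any C1q chain. *Masp1*, *Cfb* and *C4b* had log2 differences of 1.85, 1.55 and 2.58, with means of 232, 73.7 and 59.2 normalized counts in *Irf8*-OE. Reads of *C4b* may be shared with the near-identical *C4a*, and its value is uncertain for that reason. *C1ra*, *C2* and *C3* were not listed and are not analysed here.

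The regulators moved in both directions. *Serping1*, the C1 inhibitor, had 138 and 145 normalized counts in the controls and 613, 556 and 635 in *Irf8*-OE, a log2 difference of 2.08 (standard error 0.10). *Clu*, a fluid-phase inhibitor of the terminal complex, had a log2 difference of 2.06 (standard error 0.08). *Cd55*, the membrane factor that takes apart C3 convertases, was lower in every *Irf8*-OE sample. It had 3212 and 2899 normalized counts in the controls and 635, 679 and 751 in *Irf8*-OE, a log2 difference of -2.15 (standard error 0.09, adjusted p = 1.5e-06 from limma).

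Among the receptors, *C5ar1*, which senses the fragment C5a, had 300.1 and 266 normalized counts in the controls and 1029, 978 and 1062 in *Irf8*-OE, a log2 difference of 1.85 (standard error 0.09). *Scarf1* and *Megf10*, scavenger receptors that bind C1q on dying cells, had log2 differences of 2.40 and 3.13, the latter from 10.1 and 1.92 normalized counts in the controls to between 45.0 and 51.2. Of 18 genes of the C1q/TNF-related family, which share the globular C1q domain, 1 was listed, the synapse organizer *Cbln1*. Its mean was 61.3 ± 13.4 normalized counts (SD, n = 2) in the controls and 980.1 ± 78.8 (SD, n = 3) with *Irf8* overexpressed, a log2 difference of 3.99 (standard error 0.15), close to that of *C1qa*.

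**Figure D4:**
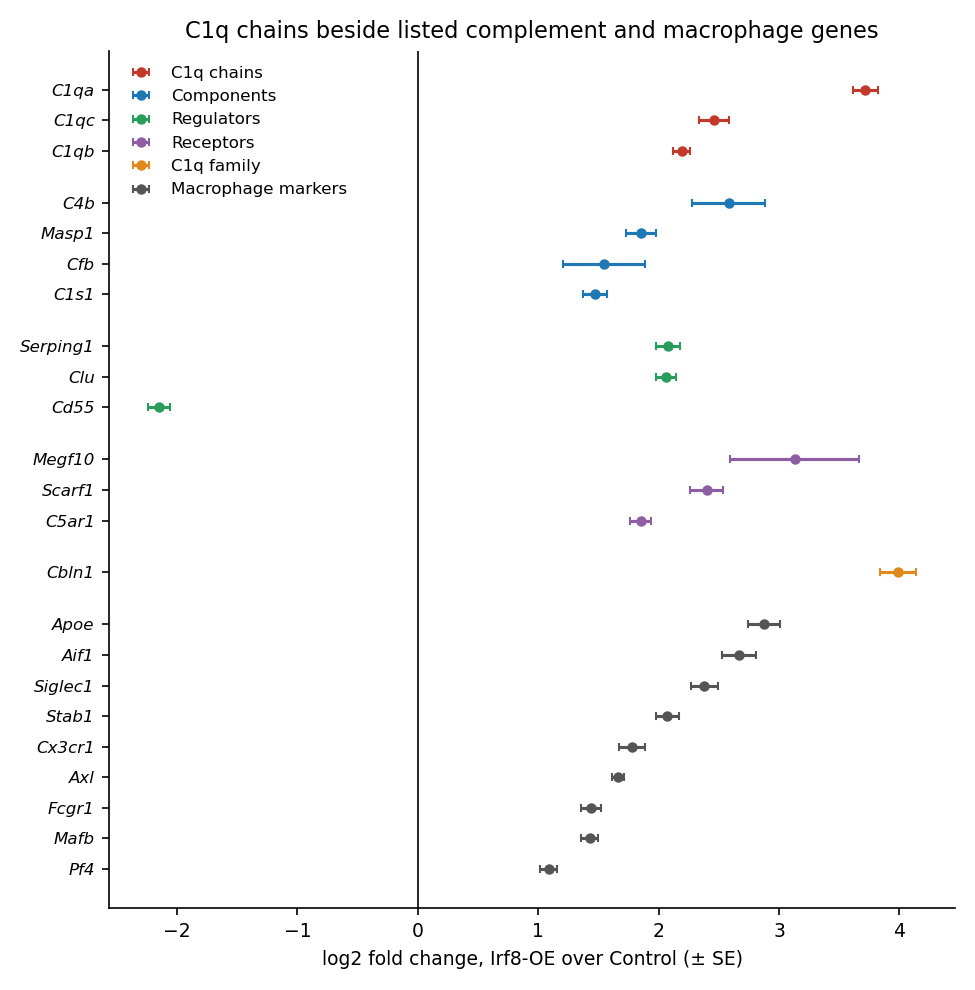
Log2 fold change of Irf8-OE over control on the log2(normalized count + 1) scale with its standard error, for the C1q chains, the complement genes and C1q family member named in the text, and the listed macrophage markers. C1qa (3.72) lies beyond all 9 macrophage markers, C1qb (2.19) and C1qc (2.46) lie among them, and Cd55 (-2.15) is the only gene below 0.

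Of 32 macrophage markers 9 were listed, and the other 23 are not analysed here. All 9 were called higher, as were 58.1% of listed genes, with log2 differences from 1.09 to 2.88 and a median of 1.78. Their summed level was 5944 to 6095 normalized counts in the controls against 19504 to 20104 in *Irf8*-OE. The most abundant were *Axl*, a receptor for the uptake of dying cells (2771 against 8784 on average), the platelet factor gene *Pf4* (1179 against 2503) and the scavenger receptor *Stab1* (516 against 2171). *C1qa* rose by more than each of the 9, *C1qc* by more than 7 and *C1qb* by more than 6. These 9 had entered the table through the same contrast, so they give no measure of macrophage content that is independent of it. The part of macrophage content in the C1q values was not tested.

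Markers of other cells also differed between the groups. Mast cell and basophil genes gave 12 listed of 16, with 2 called higher and 10 lower and a summed level of 258670 to 263092 normalized counts in the controls against 39881 to 44318 in *Irf8*-OE. *Cpa3*, *Tpsb2* and *Il1rl1* were the most abundant of them, with log2 differences of -3.00, -2.58 and -2.71. The higher genes, named after their values were seen, were the basophil proteases *Prss34* (118 against 1453 normalized counts on average) and *Mcpt8* (178 against 1233), with log2 differences of 3.64 and 2.79. Stromal markers gave 9 listed of 16, all called higher, as were 58.1% of listed genes. Their sums were 3530 to 3592 in the controls against 13183 to 14468 in *Irf8*-OE. They were led by *Col1a2*, *Sparc* and *Col1a1*, with log2 differences of 1.94, 1.58 and 3.13.

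Of 11 monocyte markers 4 were listed, 2 higher and 2 lower, with sums of 24843 to 25153 in the controls against 8822 to 8908 in *Irf8*-OE. Among their most abundant genes were *F13a1*, with a log2 difference of -2.45, and *Ly6c2*, with 1.69. *F13a1* made up most of the sum in the controls, with means of 20344 normalized counts there and 3714 in *Irf8*-OE. Neutrophil markers gave 4 higher and 1 lower of 12, and B and plasma cell markers 5 higher of 12. T and NK cell markers gave 3 higher and 1 lower of 12. Of all listed genes, 58.1% were called higher. The most abundant members of these lists by mean level were *Mpo*, *Prtn3* and *Csf3r* (log2 differences 6.40, 1.41 and 1.38), *Jchain*, *Ebf1* and *Cd79b* (7.14, 1.55 and 1.38), and *Gzmb*, *Lck* and *Cd4* (-1.66, 1.54 and 1.87). Some of these values rest on few counts in the controls, with means of 1.92 for *Jchain*, 6.65 for *Cd4* and 10.8 for *Mpo*.

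Of 18 cDC2 and general dendritic cell markers, 2 were higher and 2 lower, led by *Fscn1*, *Kit* and *Ly75* (log2 differences 1.61, -1.47 and 1.01). *Kit* is also on the list of mast cell and basophil genes and is counted as lower in both lists. Of 7 plasmacytoid markers 2 were higher, *Ly6d* and *Siglech*, with a summed level of at most 3.84 normalized counts in the controls against 25.9 to 41.1 in *Irf8*-OE. *Siglech* had no read in either control and 14.4 to 15.1 normalized counts in *Irf8*-OE. Of all listed genes, 58.1% were called higher, and no list of markers was tested against that share. Whether any of these cell types bears on the C1q values was not tested.

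*Irf8* is itself inducible by interferon. Of 42 genes of the interferon response 19 were listed, all called higher, as were 58.1% of listed genes. Their log2 differences lay between 1.01 and 3.14 with a median of 2.01. *C1qa* (3.72) lay above all 19, while *C1qb* (2.19) and *C1qc* (2.46) lay inside that range. A part of interferon in the C1q values was not tested. The most abundant interferon genes were *Oas1a*, *Oasl2* and *Usp18*, with log2 differences of 1.15, 2.67 and 1.01.

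The genes closest to C1q in pattern were sought over the 5 samples by the root mean square difference between each gene's centred log2 profile and the mean profile of the 3 chains. *Aif1*, a calcium-binding protein of macrophages, was nearest at 0.0745 log2 units, followed by the uncharacterized *BC147527* at 0.0846, *Col3a1*, a fibrillar collagen, at 0.0847, *Apoe*, an apolipoprotein, at 0.0932 and *Rtp4*, an interferon-induced gene, at 0.108. *Aif1* had 58.4 and 61.4 normalized counts in the controls and 448, 371 and 344 in *Irf8*-OE. The chains themselves stood further from their common mean, at 0.456 for *C1qa*, 0.296 for *C1qb* and 0.170 for *C1qc*. Most of each profile is the difference between the groups. The measure therefore finds listed genes with a log2 difference near the average of the chains, here 2.66 (*Aif1*) to 2.93 (*Rtp4*). Regulation in common with C1q was not tested. *BC147527* rests on few counts, 2.08 on average in the controls and 19.2 in *Irf8*-OE.

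Genes around C1q on chromosome 4 were examined within 1 Mb to either side, where GENCODE vM21 has 61 other genes, 34 of them protein-coding. Of these, 2 were listed, both called higher in *Irf8*-OE, as were 58.1% of listed genes. *Asap3*, an Arf GTPase-activating protein 634913 bases from the cluster (136206365 to 136245216), had a log2 difference of 1.64 (standard error 0.28, adjusted p = 0.00098 from limma). *Alpl*, the tissue-nonspecific alkaline phosphatase 842930 bases away (137741733 to 137796384), had a log2 difference of 1.87 (standard error 0.17, adjusted p = 3.9e-05 from limma). Their levels were 31.2 and 202 normalized counts on average in *Irf8*-OE, and the genes in between that are not listed are not analysed here.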

How the data were processed

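RNA of 5 BMDC samples was poly-A selected and read as 150 bp paired ends. The submitters' processing notes name fastp, HISAT2 2.0.5, featureCounts 1.5.0-p3, DESeq2 1.20.0, edgeR 3.22.5 and mm10. The authors deposited a signal value per gene and sample, the gene's reads divided by a size factor, for 1355 genes, all with an adjusted p under 0.05 and a log2 difference of more than 1 in size in the authors' own comparison. Their fold change, p-value and group mean columns were not used. The authors' other deposited column used here is gene length in bases.

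Every value was a whole multiple (within 0.01) of 1 step per sample, which gave back the reads. In the third library of *Irf8*-OE this step, 1.004, is near 1, although none of its values above 0 is a whole number. Recovered reads were used for chain shares and alternatives.

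Genes were tested with limma 3.58.1 (R 4.3.3, trend) on log2(normalized count + 1), all 5 samples, no covariates, and called at an adjusted p under 0.05 and an absolute log2 difference above 1. Chain ratios were compared with exact permutation tests over samples. The limma, edgeR and DESeq2 fits were tested on simulated counts in which most genes did not differ, whereas 99.1% of the listed genes were called. The members and gene lists were chosen with earlier results of these data known. Genes named are the members, listed complement and C1q family genes, the 3 most abundant genes of each other list, the 5 nearest profiles and neighbours within 1 Mb, except that some are not reported here. Alternatives were DESeq2 1.42.0 and edgeR 4.0.16 on recovered reads, quantile normalization, pseudocounts of 0.1 and 10, a filter of 10 normalized counts, a replicate block and leaving out each sample.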

Additional observations from a re-analysis of the deposited data

How the results depend on the processing

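The log2 difference of every C1q chain stayed called in the same direction under all 15 alternatives, from 3.42 to 3.93 for *C1qa*, 1.88 to 2.63 for *C1qb* and 2.16 to 2.68 for *C1qc*, with adjusted p-values of at most 0.00082 from limma, edgeR or DESeq2. The lowest values came from edgeR with TMM factors and the highest from quantile normalization, which moved the median of all listed genes from 1.14 to 0.84 and to 0.79. Both were computed on the listed genes only, all picked for a difference, so their medians and calls describe this list. The chains had entered the list through the same contrast, so that they stayed called is no independent test. With the replicate block by title numbers, a fit to which the *Irf8*-OE sample without a partner adds nothing, the differences were 3.79, 2.23 and 2.58. Samples of the same title number hardly deviated together (correlation over genes 0.03 and 0.02), nor did those of the same description number (-0.02 and 0.009). The deviations of 2 controls from their mean mirror each other, so these values cannot exclude pairing. The numbers were not taken as pairs in the main fit. The block by description numbers gave 3.63, 2.14 and 2.36 and changed no call of a chain. Between 1031 and 1354 genes were called over the alternatives. Of the calls, 787 were higher and 556 lower as reported, 509 and 522 with quantile normalization and 592 and 558 with edgeR's TMM factors.

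The *C1qa* ratios rest most on the controls. When single samples were left out, the log2 difference of the *C1qa* to *C1qb* ratio ranged from 1.43 without the second control to 1.62 without the first, that of *C1qa* to *C1qc* from 1.14 to 1.38 without the same samples, and that of *C1qb* to *C1qc* from -0.34 to -0.22. The edgeR tests on recovered reads with the authors' size factors and on 4 samples, and the length of the coding transcript, were added after the data were seen. With 3 samples against 2, no exact test can pass 0.05, and genes outside the authors' list cannot be compared.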
